A study of Mus musculus with 6 samples.

Results

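The 10 genes described here, Calcr, Cd34, Chrdl2, Vcam1, Gas1, Btg2, Cebpb, Tenm4, Rgs5, and Hmga2, were chosen by symbol as genes linked to the quiescent state of muscle stem cells (MuSCs). They were read among 49671 genes measured by RNA-Seq, and all 10 were among the 14494 that passed the filter on low counts and were tested. MuSCs were collected from female C57BL/6 mice aged 4 to 6 months at day 3 after intramuscular injection of BaCl2 (50 μL at 1.2%) into the tibialis anterior (TA), which injures myofibers. Mice received daily IP injections over 72 hours of resolvin D1 (RvD1, 100 ng), a proresolving lipid mediator, or of vehicle (0.1% ethanol), and each group held 3 mice. Each library came from 1 mouse, whose 2 TA muscles were pooled, so every library was from injured muscle. FACS kept cells that stained for β1-integrin and for CXCR4 and left out those with Sca-1, CD11b, Ter119, or CD45 on their surface. The sample labels add CD31, an endothelial protein, to the negative markers, while the antibodies listed in the study's methods do not include it. No uninjured library was analysed here, so the values give what remained at day 3 and not how much had been lost since quiescence.

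Quiescent MuSCs lie between the myofiber and its basal lamina and are kept out of the cell cycle by signals from that niche, among them Notch and calcitonin receptor signaling. After injury they enter the cell cycle as myoblasts, express Myod1 and then Myog, and fuse into new fibers, while many genes of the quiescent state fall to low levels. Calcr, Cd34, Vcam1, Tenm4, Chrdl2, and Gas1 encode surface or secreted proteins. Rgs5, Btg2, and Cebpb act inside the cell on G protein signaling, cell division, and transcription. Hmga2 encodes a chromatin protein that is known for promoting myoblast proliferation, so it belongs with activation more than with quiescence.

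Expected counts totaled between 16148026 and 28149176 per library, and 3 counts, the floor used here for counting error only, corresponded to 0.107 to 0.186 CPM, a count scaled to a common library size. The RvD1 replicate 1 library stood apart. It was the highest of the 6 libraries for 30.5% of the 14494 genes tested and the lowest for 29.6%, so the log2 fold changes of the 10 genes, and of other genes with an unadjusted p under 0.05, are also given without it. Several myogenic markers were high in all libraries. As means of 6 libraries, Itga7 was at 506 TPM (a level scaled for transcript length as well as depth), Des at 592 TPM, and Chrna1 at 510 TPM. Pax7, from the same list, was at only 5.41 TPM. The list also holds Vcam1 and the genes of the sorted proteins, Itgb1 and Cxcr4. The summed level of 10 myogenic markers ranged from 3096 to 3460.1 TPM with RvD1 and from 2926 to 3166 TPM with vehicle. Pecam1 (CD31) lay between 0.25 and 3.61 TPM.

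The promoters of Btg2, Rgs5, and Hmga2 are shown because Btg2 and Rgs5 had the smallest unadjusted p values of the 10 genes and Hmga2 was the only one that was lowest in RvD1 replicate 1. Each sequence holds the 250 bases before the RefSeq start site on GRCm38.p6, written 5′ to 3′ on the strand of the gene. Capitals mark matches on either strand to CCAAT, TGACGTCA (a cAMP response element, CRE), TGGGAA (the core bound by the Notch effector RBPJ), CANNTG (E-box), or TATAAA.
Btg2, chr1:134079156-134079405, minus strand: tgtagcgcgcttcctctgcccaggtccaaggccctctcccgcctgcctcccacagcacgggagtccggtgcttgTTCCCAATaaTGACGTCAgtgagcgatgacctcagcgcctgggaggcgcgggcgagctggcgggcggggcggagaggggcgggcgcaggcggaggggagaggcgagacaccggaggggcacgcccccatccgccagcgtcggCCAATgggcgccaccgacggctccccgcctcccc
Rgs5, chr1:169655251-169655500, plus strand: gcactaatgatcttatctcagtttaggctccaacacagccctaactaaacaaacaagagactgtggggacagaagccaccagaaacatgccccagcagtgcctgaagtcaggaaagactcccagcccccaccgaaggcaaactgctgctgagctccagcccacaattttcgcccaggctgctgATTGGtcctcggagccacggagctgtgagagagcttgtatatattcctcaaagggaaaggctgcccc
Hmga2, chr10:120476470-120476719, minus strand: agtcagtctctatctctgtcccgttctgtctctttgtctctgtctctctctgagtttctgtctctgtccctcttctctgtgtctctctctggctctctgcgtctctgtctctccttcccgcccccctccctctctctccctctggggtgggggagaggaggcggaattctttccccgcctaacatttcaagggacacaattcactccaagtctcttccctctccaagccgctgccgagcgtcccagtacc
The Btg2 window held 1 CRE, a motif present in 1.55% of the 32851 promoter windows in the table, at 166 bases before the start. It also held 2 CCAAT matches, present in 33.8% of windows, and 1 TGGGAA match, present in 21.6%, which overlaps the CCAAT match farther from the start. In the Rgs5 window, 1 CCAAT match was found 67 bases before the start. The Hmga2 window held no match to the 5 motifs, which says only that these letters do not occur in it. E-box matches are present in 66.2% of windows and TATAAA in 12.4%. A match describes the sequence and is not evidence of binding.

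Levels per transcript length differed widely among the 10 genes, and most of them were still read clearly at day 3. As means of 6 libraries, Vcam1 was at 189 TPM, Gas1 at 81.1 TPM, Cebpb at 50.2 TPM, and Btg2 at 27 TPM. Cd34 followed at 14.7 TPM, Rgs5 at 12.7 TPM, and Hmga2 at 4.51 TPM. Tenm4 was at 2.76 TPM, Calcr at 2.26 TPM, and Chrdl2 at 0.872 TPM. Of the 10, 9 exceeded the median of 1.08 TPM over the 26766 genes with any signal, and Chrdl2 did not. The median over the 14494 genes tested was 14.9 TPM, and 4 of the 10, Vcam1, Gas1, Cebpb, and Btg2, exceeded it. The range of 6 libraries for Vcam1 did not touch that of Gas1, nor did that of Rgs5 touch that of Hmga2, while every other pair of neighbors in this order overlapped in range. Cd34 exceeded Rgs5 in 5 of 6 libraries, and Tenm4 exceeded Calcr in only 2 of 6.

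**Figure D1:**
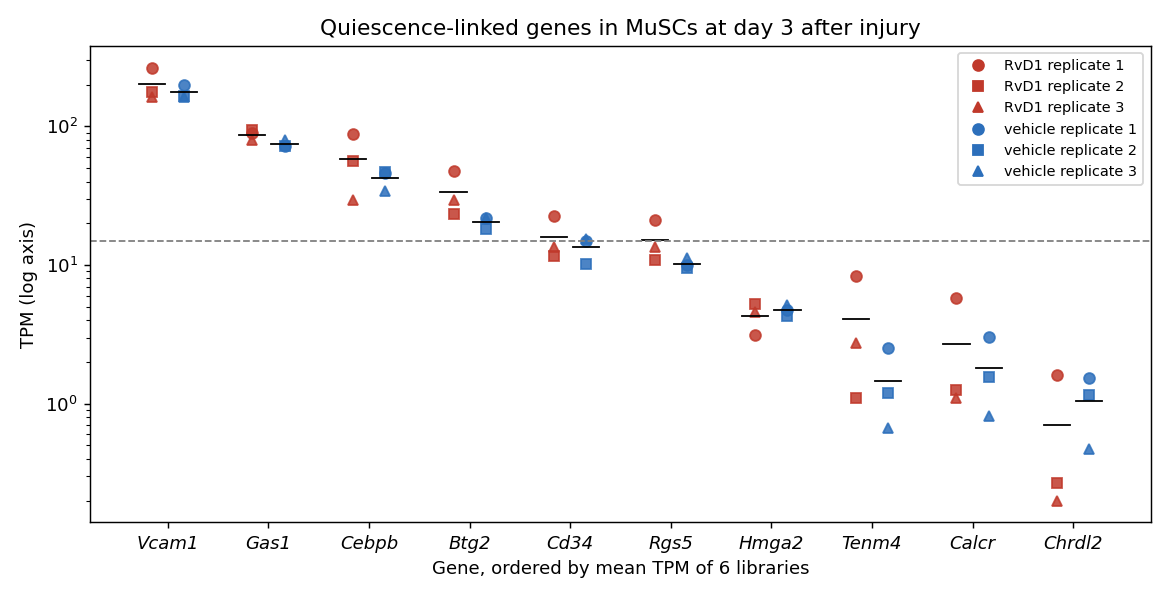
TPM on a log axis of the 10 quiescence-linked genes in each library, ordered by the mean of 6 libraries; red symbols are RvD1, blue symbols vehicle, shapes the replicate number, short lines the group means, and the dashed line the median of the genes tested (14.9 TPM). Vcam1 lies highest and Chrdl2 lowest, and the red circle of RvD1 replicate 1 lies above the other libraries for most genes.

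For scale, Pax7, the transcription factor that defines MuSCs, was at 5.41 TPM, ranging from 4.03 to 8.50 TPM. The 15 genes of activation and division listed here were all above Pax7 in mean level but ranged widely. Myog, a factor of differentiation, was the highest at 977 TPM, followed by Rrm2, a subunit of ribonucleotide reductase, at 897 TPM. The lowest was Mki67 at 21.9 TPM, below the means of Vcam1, Gas1, Cebpb, and Btg2. In vehicle replicates 1 and 2, however, Btg2 was below Mki67. Hmga2, Tenm4, Calcr, and Chrdl2 were below Pax7 in mean level. Hmga2 nevertheless exceeded Pax7 in RvD1 replicate 2 and in vehicle replicates 2 and 3. Vcam1, Gas1, Cebpb, Btg2, Cd34, and Rgs5 were above Pax7 in each library.

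Between RvD1 and vehicle, 0 of the 10 genes passed an adjusted p under 0.05 in edgeR's quasi-likelihood test, and 0% of all genes tested did so. At an unadjusted p under 0.05 there was 1 of the 10, Btg2, where 3.47% of all genes passed and 1.83% passed with the higher level under RvD1. The log2 fold change was above 0 for 8 of the 10, against 53.5% of all genes, and its median was 0.26, against 0.01 over all genes. Without RvD1 replicate 1, it was above 0 for 4 of the 10 and the median was −0.02, and 2 genes, Chrdl2 and Btg2, had an unadjusted p under 0.05 in edgeR, where 4.33% of all genes did. The count at that unadjusted threshold depended on the method. It was 3 of 10 with DESeq2 (2.05% of 26632 genes). In edgeR with replicate number entered as a block it was 3 of 10 (6.18% of 14494 genes). In limma with surrogate variables it was 4 of 10 (11.2% of 26518 genes). The DESeq2 and surrogate variable fits kept genes with few counts that the main filter removed, so their shares are over unlike sets of genes. Adjusted calls over all genes stayed few, at 0.045% without a count filter and 0.00672% without RvD1 replicate 3, with none of the 10 among them. After Benjamini-Hochberg adjustment edgeR gave each of the 10 an adjusted p of 0.971, so the intervals given for each gene show how large a difference these libraries leave possible. Since the sorted cells were measured in bulk, fewer cells with a transcript and less transcript per cell cannot be told apart.

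**Figure D2:**
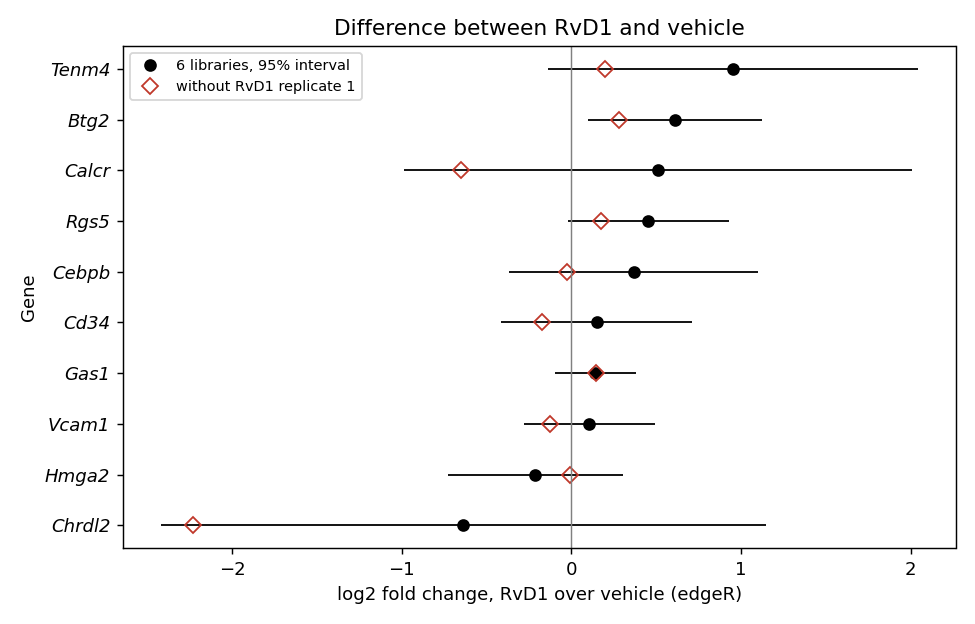
log2 fold change of each gene, RvD1 over vehicle, from edgeR; black points and lines are the value and 95% interval with 6 libraries, and open red diamonds are the value without RvD1 replicate 1. Only the interval of Btg2 lies wholly above 0 (0.10 to 1.12), and the diamonds of Calcr, Cd34, Vcam1, and Cebpb lie on the other side of 0 from the points.

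Calcr (ENSMUSG00000023964, chromosome 6, 3685680 to 3764714, GRCm38) encodes the calcitonin receptor, a G protein-coupled receptor that holds MuSCs in quiescence. It was at 11.8, 2.67, and 2.27 CPM in RvD1 replicates 1, 2, and 3, and at 6.43, 3.50, and 1.84 CPM in vehicle replicates 1, 2, and 3. The groups overlapped, and replicate 1 was the highest of each group. The highest library exceeded the lowest by 6.37-fold, and RvD1 replicate 1 lay 4.4-fold above the median of the other 5. Group means were 5.57 ± 5.36 CPM (SD, n = 3) for RvD1 and 3.93 ± 2.32 CPM for vehicle. The log2 fold change was 0.51 (95% interval −0.99 to 2.01). With that library left out the log2 fold change was −0.65. In rank, Calcr lay between the 32.6th and the 54.6th percentile of the genes detected in a library.

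Of 15 genes around the calcitonin receptor, 13 had enough counts to be tested and 0 passed the adjusted threshold. Gnas, which encodes the stimulatory G protein subunit, was at 1044 TPM, Prkaca, the catalytic subunit of protein kinase A, at 111 TPM, and Col5a2, a chain of collagen V, at 75.3 TPM. Collagen V is known as a ligand of Calcr in MuSCs. Calca, which encodes calcitonin and CGRP, was at 12.5, 11.3, and 10.5 TPM with RvD1 and at 7.24, 7.45, and 7.57 TPM with vehicle, so its groups did not overlap. Over all genes tested, the groups of 9.61% did not overlap. The log2 fold change of Calca was 0.58 (edgeR, unadjusted p = 0.0335, adjusted p = 0.971). Without RvD1 replicate 1 it was 0.50, with an unadjusted p in edgeR of 0.0814. With all libraries, Calca was the only 1 of the 13 with an unadjusted p under 0.05, where 3.47% of all genes passed. Without that library, Calcrl was at −0.46 (edgeR, unadjusted p = 0.0191). RvD1 replicate 1 was the highest library for 10 of the 13 genes.

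Vcam1 (ENSMUSG00000027962, chromosome 3, 116109949 to 116129688) encodes an adhesion molecule that is used to isolate quiescent MuSCs. It was at 522, 362, and 321 CPM with RvD1 and at 412, 356, and 352 CPM with vehicle. RvD1 replicate 1 was the highest, and the other 5 libraries ranged from 321 to 412 CPM. Its log2 fold change was 0.11 (95% interval −0.28 to 0.49) and was −0.13 without RvD1 replicate 1. With percentiles of 93.9 to 96.8 in the 6 libraries, Vcam1 was among the most abundant transcripts of these activated cells. Of its integrin partners, Itgb1, whose protein was a sorting marker, was at 470 TPM, while Itga4 was at 0.72 TPM and Itga9 at 1.02 TPM.

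Cd34 (ENSMUSG00000016494, chromosome 1, 194938819 to 194961279) encodes a sialomucin of stem and endothelial cells. It was at 32.3, 17.6, and 19.5 CPM with RvD1 and at 22.3, 16.1, and 24.2 CPM with vehicle. The groups overlapped, and the log2 fold change was 0.15 (95% interval −0.42 to 0.71), or −0.17 without RvD1 replicate 1. Levels of 10 endothelial markers summed to 16.3 to 21.7 TPM with RvD1 and to 9.86 to 32.3 TPM with vehicle. The endothelial sum was highest in vehicle replicate 3 and Cd34 in RvD1 replicate 1. Those libraries and vehicle replicate 1 were the highest for both, and vehicle replicate 2 was the lowest for both. The defining marker Cdh5 was at or below 1.02 TPM in each library. Of the 10 endothelial markers, 9 had a log2 fold change below 0 and 0 had an unadjusted p under 0.05. Over all genes, 53.5% were above 0. The median of the endothelial markers was −0.97 with all libraries. Without RvD1 replicate 1 it was −1.16, and 0 of these markers were above 0. Their part in the Cd34 signal was not tested. Among the relatives and partners of Cd34 and Vcam1, 7 genes that were all tested, 0 had an unadjusted p under 0.05 with all libraries. Without RvD1 replicate 1, Podxl was at −0.66 (edgeR, unadjusted p = 0.0113) and Icam1 at −0.59 (edgeR, unadjusted p = 0.00994). In that fit 4.33% of all genes had an unadjusted p under 0.05. The Cd34 relative Podxl2 was at 4.68 TPM and Icam1 at 8.11 TPM.

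Tenm4 (ENSMUSG00000048078, chromosome 7, 96171246 to 96911093) encodes a teneurin, a transmembrane adhesion protein that binds latrophilins. It was at 17.9, 6.06, and 5.54 CPM with RvD1 and at 7.30, 4.71, and 3.25 CPM with vehicle. Its log2 fold change of 0.95 was the largest of the 10 (95% interval −0.14 to 2.04, edgeR unadjusted p = 0.0791), and was 0.20 without RvD1 replicate 1. The fold change thus rested on 1 library, which was 3.22-fold above the median of the other 5. In TPM, RvD1 replicate 2 was at 1.10 and RvD1 replicate 3 at 2.73 although their CPM values were close, so the length-scaled level of Tenm4 is less certain than its count. Of 3 other teneurins, Tenm3 was at 7.57 TPM and Tenm1 and Tenm2 had too few counts to be tested. Of the latrophilins, Adgrl2 was at 30.4 TPM and Adgrl3 at 5.48 TPM. Adgrl3 had a log2 fold change of 0.51 (edgeR, unadjusted p = 0.046), or 0.37 without RvD1 replicate 1 (edgeR, unadjusted p = 0.119). It was the only 1 of the 4 other teneurin and latrophilin genes tested with an unadjusted p under 0.05, where 3.47% of all genes passed.

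Chrdl2 (ENSMUSG00000030732, chromosome 7, 100006172 to 100034728) encodes a secreted inhibitor of bone morphogenetic proteins. It had 28, 5, and 3 expected counts with RvD1 and 19, 16, and 8 with vehicle, so RvD1 replicate 3 was at the floor of 3 counts. The RvD1 libraries held both the highest and the 2 lowest values in CPM. The log2 fold change was −0.64 (95% interval −2.42 to 1.15). Leaving out RvD1 replicate 1 gave −2.23 (edgeR, unadjusted p = 0.00945, adjusted p = 0.967). Chrdl2 was the least abundant of the 10, between the 14.9th and the 41.9th percentile. Of 12 genes encoding chordin relatives, other inhibitors, bone morphogenetic proteins, and their receptors, 10 were tested and 0 passed the adjusted threshold. Chrd, the founding member, was at 3.88, 3.57, and 4 TPM with RvD1 and at 2.71, 3.07, and 2.12 TPM with vehicle (log2 fold change 0.56, edgeR unadjusted p = 0.0275). The value for Chrd without RvD1 replicate 1 was 0.58. Chrd was the only 1 of these 10 tested genes with an unadjusted p under 0.05, where 3.47% of all genes passed. The receptor gene Bmpr1a was at 55.7 TPM, Chrdl1 at 11.2 TPM, and Bmp4 at 5.17 TPM.

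Gas1 (ENSMUSG00000052957, chromosome 13, 60174405 to 60177365) encodes a membrane-anchored protein induced at growth arrest, which binds hedgehog ligands and the receptor Ret. It was at 151, 168, and 137 CPM with RvD1 and at 130, 134, and 150 CPM with vehicle. The values varied least of the 10 genes, by 1.29-fold from the lowest to the highest library. Gas1 had a log2 fold change of 0.14 (95% interval −0.10 to 0.38), of 0.15 without RvD1 replicate 1, and of 0.061 without RvD1 replicate 2, its highest library. Exons of Gm48488, an annotated gene on the other strand, cover 19.9% of its exon bases. Of 14 partner genes, 12 were tested, and 0 had an unadjusted p under 0.05. All 12 had a log2 fold change above 0, against 53.5% of all genes. When RvD1 replicate 1 was left out it was above 0 for 7 of the 12. In that fit Ptch1 was at 0.32 (edgeR, unadjusted p = 0.0354) and Gli3 at 0.24 (edgeR, unadjusted p = 0.0372). Of all genes, 4.33% then had an unadjusted p under 0.05. The highest were Smo at 31 TPM, Cdon at 25.7 TPM, and Gli3 at 16.1 TPM, while Shh had a mean of 0.333 counts.

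Rgs5 (ENSMUSG00000026678, chromosome 1, 169655501 to 169695813) encodes a regulator that shortens G protein signaling and is also a marker of pericytes. It was at 48.9, 27.0, and 32.5 CPM with RvD1 and at 24.7, 24.7, and 29.6 CPM with vehicle. The groups overlapped, since vehicle replicate 3 exceeded RvD1 replicate 2. Means were 36.1 ± 11.4 CPM (SD, n = 3) under RvD1 and 26.3 ± 2.83 CPM under vehicle, and the log2 fold change was 0.45 (95% interval −0.02 to 0.93, edgeR unadjusted p = 0.0589). Without the highest library, RvD1 replicate 1, it was 0.17.

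Of 10 markers of mural cells, the pericytes and smooth muscle cells of vessels, 3 had an unadjusted p under 0.05, where 3.47% of all genes did, and 0 passed the adjusted threshold. Pdgfrb was at 29.4, 11.6, and 20.5 TPM with RvD1 and at 11.3, 11.7, and 13.35 TPM with vehicle (log2 fold change 0.66, edgeR unadjusted p = 0.0358), and the fold change was 0.32 without RvD1 replicate 1 (edgeR, unadjusted p = 0.123). Abcc9 was at 6.72, 3.11, and 3.99 TPM and at 1.91, 2.36, and 2.18 TPM (log2 fold change 0.99, edgeR unadjusted p = 0.00529), without overlap, and its fold change was 0.62 when that library was left out (edgeR, unadjusted p = 0.00688). Ndufa4l2 had a log2 fold change of 1.13 (edgeR, unadjusted p = 0.0031), or 1.2 without RvD1 replicate 1 (edgeR, unadjusted p = 0.00265), and was highest in RvD1 replicate 2. Kcnj8, Rgs5, Pdgfrb, and Abcc9 shared the same order among the RvD1 libraries, with replicate 1 highest and replicate 2 lowest. That order is not particular to mural markers, since Btg2 and Cd34 had it too, and its share over all genes was not counted. Cspg4 and Myh11 were highest in RvD1 replicate 3. Of the 10 mural markers, 9 had a log2 fold change above 0 with all libraries and 9 without RvD1 replicate 1, with medians of 0.40 and 0.26, and Cox4i2 was the one below 0, at −0.24. Their sum ranged from 58.1 to 97.5 TPM with RvD1 and from 49.8 to 53.3 TPM with vehicle, and their part in the Rgs5 values was not tested. Mcam was the highest at 17.2 TPM and Cspg4 was at 7.54 TPM.

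**Figure D3:**
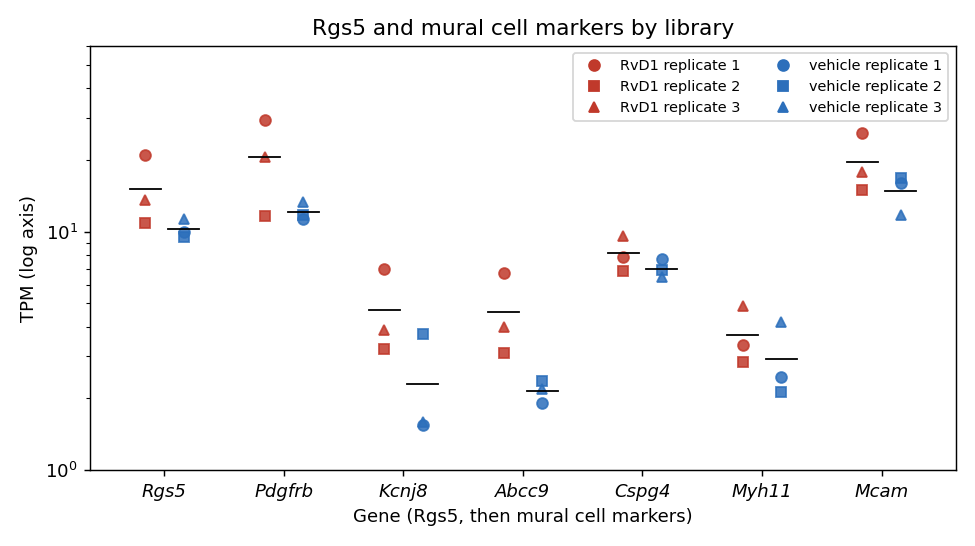
TPM on a log axis of Rgs5 and 6 mural cell markers in each library, with red symbols for RvD1, blue for vehicle, shapes for the replicate number, and short lines for group means. Rgs5, Pdgfrb, Kcnj8, and Abcc9 are highest in RvD1 replicate 1, while Cspg4 and Myh11 are highest in RvD1 replicate 3.

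In the RGS family, 13 of 20 other genes had enough counts to be tested and 0 had an unadjusted p under 0.05. Their median log2 fold change was −0.13 with all libraries and −0.13 without RvD1 replicate 1. Rgs19 was at 41 TPM, Rgs16 at 19 TPM, and Rgs12 at 18 TPM, the 3 highest of the family, and Rgs2 at 16.6 TPM also exceeded Rgs5 in mean level. Rgs13, Rgs21, and Rgs22 had 0 counts in every library.

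Btg2 (ENSMUSG00000020423, chromosome 1, 134075170 to 134079120) encodes an antiproliferative protein that recruits mRNA deadenylases, and its promoter window is the one with the CRE. It was at 75.2, 38.5, and 46.7 CPM with RvD1 and at 35.8, 31.5, and 37.6 CPM with vehicle. Btg2 was the only one of the 10 whose groups did not overlap, where 9.61% of all genes tested did not and 4.77% did so with the higher values under RvD1. RvD1 replicate 2 exceeded vehicle replicate 3 by a small margin. The means were 53.5 ± 19.3 CPM (SD, n = 3) and 35.0 ± 3.14 CPM, and the log2 fold change was 0.61 (95% interval 0.10 to 1.12, edgeR unadjusted p = 0.0245, adjusted p = 0.971). Without RvD1 replicate 1 it was 0.28 (edgeR unadjusted p = 0.0489, adjusted p = 0.967). The unadjusted p in edgeR was 0.0515 without vehicle replicate 1 and 0.0824 without vehicle replicate 2. Of 7 genes of the BTG/TOB family and their deadenylase partners, 6 were tested, with a median log2 fold change of 0.01 (−0.06 without RvD1 replicate 1) and 0 with an unadjusted p under 0.05. Btg1 was at 153 TPM, Tob1 at 129 TPM, and Cnot7 at 101 TPM, all above Btg2.

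Cebpb (ENSMUSG00000056501, chromosome 2, 167688915 to 167690418) encodes a bZIP transcription factor that opposes differentiation of MuSCs. It was at 74.1, 50.2, and 25.2 CPM with RvD1 and at 41.0, 43.2, and 31.8 CPM with vehicle. The RvD1 libraries held both the 2 highest and the lowest value. The log2 fold change was 0.37 (95% interval −0.36 to 1.10) and was −0.02 without RvD1 replicate 1. Exons of Tmem189 on the other strand cover 20.7% of the exon bases of Cebpb, and Tmem189 had a mean of 1946 counts against 918 for Cebpb. The SMART-Seq v4 kit does not mark strand, so reads in that stretch cannot be told apart. Of 5 relatives, 4 were tested and 0 had an unadjusted p under 0.05. Cebpg was at 37.1 TPM, Ddit3 at 33.1 TPM, and Cebpd at 6.53 TPM, while Cebpe had 0 counts.

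Hmga2 (ENSMUSG00000056758, chromosome 10, 120361275 to 120476469) encodes an AT-hook protein of chromatin. It was at 6.64, 11.8, and 9.92 CPM with RvD1 and at 10.6, 10.04, and 12.3 CPM with vehicle. RvD1 replicate 1 was the lowest library, the reverse of its place for 8 of the other 9 genes. The log2 fold change was −0.21 (95% interval −0.73 to 0.30) and was −0.01 without RvD1 replicate 1. Hmga1, its close relative, was likewise lowest in RvD1 replicate 1, at 142 TPM against 177 to 210 TPM elsewhere. Igf2bp2, which encodes an RNA-binding protein, was highest there, at 29.2 TPM against 10.8 to 17.2 TPM. Of 6 genes in the Hmga2 list 3 were tested and 0 had an unadjusted p under 0.05. Igf2bp3 was at 0.9 TPM, and Lin28a had 0 counts.

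Across the 10 genes, RvD1 replicate 1 was the highest library for 8 of the 10, against 30.5% of all genes, and the lowest for 1, against 29.6%. RvD1 replicate 2 was the highest for Gas1, as for 12.2% of all genes, and vehicle replicate 3 for Hmga2, as for 18%. For 4 of the 10, Calcr, Chrdl2, Vcam1, and Tenm4, the 2 highest libraries were RvD1 replicate 1 and then vehicle replicate 1, an order found for 11.6% of all genes. RvD1 replicate 3 was the lowest for 3, Vcam1, Cebpb, and Chrdl2, and for 17.3% of all genes.

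**Figure D4:**
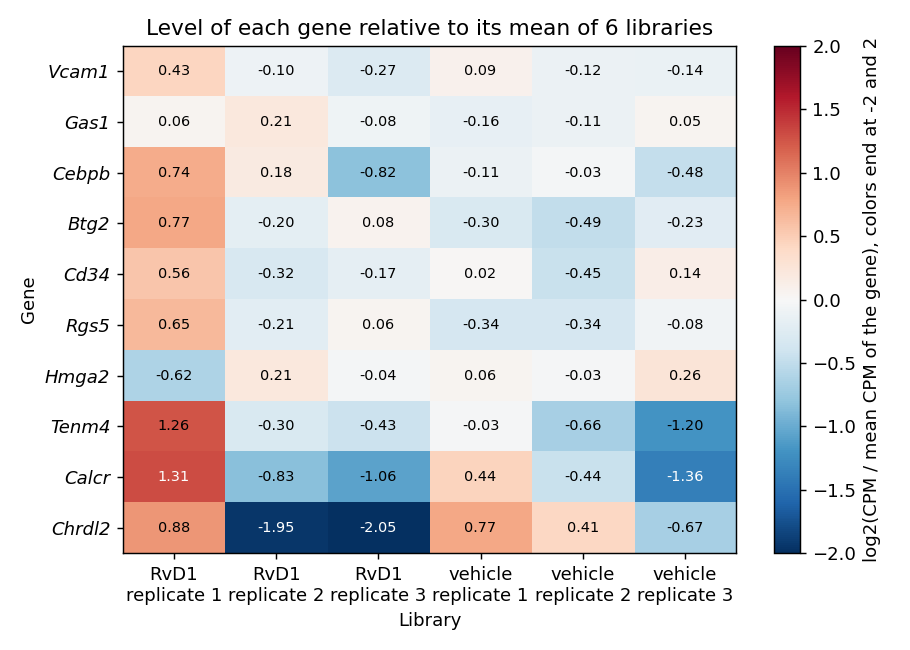
Level of each quiescence-linked gene in each library as log2 of its CPM over the mean of the 6 libraries, red above and blue below the mean. The column of RvD1 replicate 1 is positive for 9 genes and negative for Hmga2 alone, and that of vehicle replicate 1 reaches 0.44 for Calcr and 0.77 for Chrdl2.

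The same library stood out among 30 other genes linked to quiescence, which were taken from a list and all tested. The list is broad: it holds immediate early genes such as Fos, Jun, and Egr1, and also Myf5, Itga7, and Cdh15, which are among the myogenic markers too. RvD1 replicate 1 was the highest for 19 of the 30, or 63.3%, and the lowest for 2. Gpx3, a secreted glutathione peroxidase, was at 1361 TPM there and at 263 to 464 TPM in the other libraries. Heyl, a Notch target, was at 152 TPM against 53.9 to 91.1 TPM, and Ndrg2 was at 75.7 TPM against 18.4 to 34.0 TPM. Pax7 was at 8.50 TPM against 4.03 to 6.63 TPM. Cdkn1c, a cyclin-dependent kinase inhibitor, was the most abundant of the list at 589 TPM, and Itga7, at 506 TPM, was lowest in that library in CPM.

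Between treatments, 0 of these 30 genes passed the adjusted threshold and 24 had a log2 fold change above 0, with a median of 0.10. Without RvD1 replicate 1, 11 of 30 were above 0 and the median was −0.09. Klf4, a factor that restrains division, was the 1 gene of 30 with an unadjusted p under 0.05, a share close to the 3.47% of all genes. It was at 26.03, 24.95, and 24.91 TPM with RvD1 and at 29.8, 34.4, and 27.25 TPM with vehicle. Its log2 fold change was −0.37 (edgeR, unadjusted p = 0.00903, adjusted p = 0.971) and −0.36 without RvD1 replicate 1.

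Genes of activation and division took the opposite order. Of 15, all tested, RvD1 replicate 1 was the lowest library for 13 and the highest for 0. Rrm2 was at 659 TPM there and at 849 to 1079.7 TPM elsewhere, and Pcna, the replication clamp, at 314 TPM against 367 to 406 TPM. Myog and Mki67 were the exceptions, with Myog lowest in vehicle replicate 1 and Mki67 in vehicle replicate 3. The median log2 fold change of the 15 was −0.10 with all libraries and 0.06 without RvD1 replicate 1, and 0 had an unadjusted p under 0.05.

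**Figure D5:**
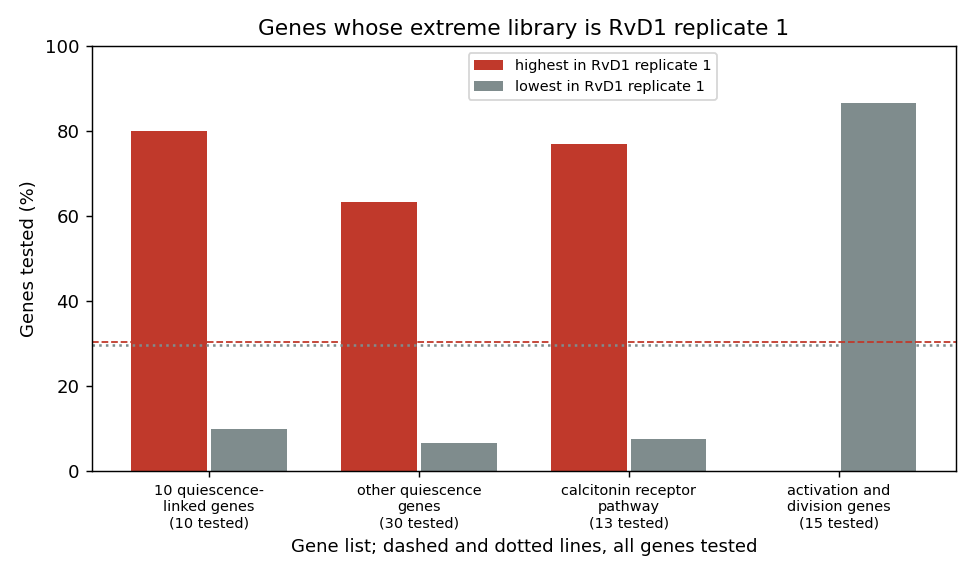
Share of the tested genes of 4 lists for which RvD1 replicate 1 was the highest (red bars) or lowest (gray bars) of 6 libraries; dashed and dotted lines mark the same shares of all genes tested, 30.5% and 29.6%. The red bar is at 80% for the 10 quiescence-linked genes, and the gray bar is at 86.7% for the activation and division genes.

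Markers of other cells in muscle also differed in that library. Of 12 markers of fibro-adipogenic progenitors, cells that also express Cd34, 11 were tested and RvD1 replicate 1 was the highest for 9. Their sum was 2870.4 TPM there and 1297 to 1772 TPM in the other 5 libraries. Dcn was at 450 TPM against 182 to 284 TPM. The defining marker Pdgfra did not stand out, at 3.48 TPM against 1.57 to 3.55 TPM. The highest of the list were Col3a1 at 530 TPM, Col1a2 at 407 TPM, and Gsn at 304 TPM. Ly6a, which encodes the excluded protein Sca-1, had a log2 fold change of −0.62 (edgeR, unadjusted p = 0.0141), or −0.74 without RvD1 replicate 1, and was lowest in RvD1 replicate 3.

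Of 6 Schwann cell markers, 4 were highest in RvD1 replicate 1, and their sum was 58.4 TPM there and 20.4 to 35.8 TPM elsewhere. Unlike the 10 genes, the Schwann markers kept a median log2 fold change of 0.53 without that library, against 0.67 with it. Of the 6 Schwann markers, 3 had an unadjusted p under 0.05 (3.47% of all genes) and 0 an adjusted p under 0.05. Cdh19, Ngfr, and Mbp had log2 fold changes of 0.87, 0.70, and 0.64 (edgeR, unadjusted p = 0.0103, unadjusted p = 0.00778, and unadjusted p = 0.0195), which were 0.53, 0.61, and 0.54 without RvD1 replicate 1.

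Leukocyte markers summed to 36.9 to 60.2 TPM with RvD1 and to 51.4 to 91.8 TPM with vehicle, and RvD1 replicate 1 was the highest for 2 of 11 tested. Of the 11, 3 had an unadjusted p under 0.05 in edgeR, where 3.47% of all genes did, and 0 an adjusted p under 0.05. The log2 fold change was above 0 for 0 of the 11, both with all libraries and without RvD1 replicate 1, with medians of −0.53 and −0.73. Lyz2, at 34.6 TPM the most abundant, had a log2 fold change of −1.06 (edgeR, unadjusted p = 0.00953), and those of C1qb and Tyrobp were −0.73 and −1.04 (edgeR, unadjusted p = 0.0204 and unadjusted p = 0.0231). Leaving out RvD1 replicate 1 gave −1.41 for Lyz2, −0.73 for C1qb, and −0.83 for Tyrobp, whose unadjusted p in edgeR was then 0.0736. Cd68 was at 8.07 TPM and Fcer1g at 4.68 TPM. Egfl7 at 6.41 TPM and Esam at 5.49 TPM were the highest endothelial markers. The part of these cell types in the values of the 10 genes was not tested.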

How the data were processed

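RNA-Seq libraries came from sorted MuSCs of 6 mice, 3 given RvD1 and 3 given vehicle. The authors aligned 76-bp single-ended reads to mm10 with STAR 2.5.0a and quantified genes with RSEM, as the study's methods and the submitters' processing notes state. The deposited expected counts are RSEM estimates left unscaled. For the deposited TPM values, the authors corrected for transcript length and brought each library to the same total. The deposited FPKM values were not used here.

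Expected counts were rounded and tested with edgeR 4.0.16 in R 4.3.3 (TMM factors, filterByExpr by group, quasi-likelihood test, Benjamini-Hochberg adjustment over all 14494 genes tested, threshold 0.05). CPM values are expected counts scaled with the TMM factors and were used between libraries, and TPM between genes. Intervals are edgeR's log2 fold change with a standard error from its test statistic. Percentiles are among genes with TPM above 0 in a library. Of 2 rows named Itgam, the one with more counts was used.

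Alternatives were DESeq2 1.42.0, RLE factors, library totals, no count filter, robust estimation, a replicate block, limma 3.58.1 (voom) with and without surrogate variables from sva 3.50.0, log2(TPM + 1), log2(TPM + 0.1), and fits that leave out 1 library each. The study also used limma-voom with surrogate variables but does not state how many it removed, and 1 was removed here. The code was first tested on simulated data with 200 changed genes.

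Positions are from GENCODE M21 on GRCm38, and promoters from RefSeq (GRCm38.p6), which held windows for 8 of the 10 genes. Both groups use replicate numbers 1 to 3, for separate mice, and nothing states that they were paired. The mice are separate animals with 1 library each, so p values set the difference between groups against the spread between libraries. That spread holds differences of sorting and library preparation as well as those between mice.

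The 10 genes and all lists were chosen with earlier results of these data known. Genes named from a list are its 3 with the highest mean TPM and those with an unadjusted p under 0.05, or with 0 counts in a family list, and the defining markers of a cell type set beside one of the 10. The values of 1 gene that this rule names are not reported here. Others that a sentence singles out, such as Heyl, Ndrg2, Pcna, Itga4, Itga9, Tenm3, and Dcn, were chosen after their values were seen.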

Additional observations from a re-analysis of the deposited data

How the results depend on the processing

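The number of the 10 genes with an adjusted p under 0.05 was 0 in edgeR and in each of the 16 alternatives, among them DESeq2 and limma with surrogate variables, and the smallest adjusted p of any of them was 0.216 (Chrdl2, limma with surrogate variables). At an unadjusted p under 0.05 there was 1 gene in edgeR and 3 in DESeq2. Over all genes the number with an adjusted p under 0.05 was 0, and 12 without a count filter. With 1 replicate left out it was 0 to 1, the 1 being found without RvD1 replicate 3. The sign of the log2 fold change of the 10 genes was reversed in 6 of 160 alternative values. Limma with surrogate variables gave −0.0071 for Calcr. Without RvD1 replicate 1 it was −0.65 for Calcr, −0.17 for Cd34, −0.13 for Vcam1, and −0.025 for Cebpb, and without vehicle replicate 2 it was −0.01 for Cd34. With each replicate left out in turn, the ranges were −0.65 to 1.06 for Calcr, −0.17 to 0.31 for Cd34, −0.13 to 0.24 for Vcam1, −0.02 to 0.68 for Cebpb, 0.20 to 1.3 for Tenm4, 0.28 to 0.80 for Btg2, 0.17 to 0.63 for Rgs5, 0.061 to 0.21 for Gas1, −0.41 to −0.01 for Hmga2, and −2.23 to −0.19 for Chrdl2. The median of the 10 ranged from −0.02 (without RvD1 replicate 1) to 0.39. The cause of these changes was not tested. Of the 10 genes, 9 lay above the median level of genes with any signal, and 4 above that of genes with a mean of at least 1 TPM or of genes tested, as those references leave out low genes.

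Libraries that share a replicate number had correlations of their deviations of 0.31, −0.00071, and 0.13 for numbers 1, 2, and 3, and 3 of 6 libraries correlated best with their own number. With the replicate number as a block, edgeR gave 0 of the 10 genes with an adjusted p under 0.05 (smallest 0.791) and 3, Btg2, Tenm4, and Rgs5, with an unadjusted p under 0.05. The block left the median log2 fold change of the 10 at 0.20 and the number over all genes at 0.

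Chrdl2 had a mean of 13.2 expected counts per library, so its counting error was the largest of the 10, and the other 9 genes had means of 95.8 counts or more.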
